A study of Mus musculus with 12 samples.

Results

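The 9 genes of retinoid uptake and metabolism Rbp2, Rbp4, Lrat, Bco1, Isx, Retsat, Aldh1a1, Rdh7 and Cyp26a1 were followed in the duodenum and the liver of mice given corticosterone (CORT). They were chosen by gene name, and each name matched a row of both expression tables, which list 55416 genes. Male C57BL6/J mice, 8 weeks old at the start, were injected under the skin every day for 8 weeks with CORT at 40 mg/kg or with vehicle (Veh). The CORT solution was made in DMSO, Tween-80 and water. RNA-seq was made from 3 Veh and 3 CORT libraries of each tissue, 12 libraries in all. The labels mark the libraries as Bio rep and do not say whether the duodenum and the liver of the same number came from the same mouse, nor that every library is a separate mouse, so the p-values measure the spread between these libraries. No other genotype or treatment was included.

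Retinoids are vitamin A and its derivatives. In the duodenum, enterocytes take up carotenoids and retinol, cleave beta-carotene to retinal and pack retinyl esters into chylomicrons, and the homeobox factor ISX represses the genes for carotenoid uptake and cleavage when retinoic acid is plentiful. The liver takes up the esters, stores them mainly in stellate cells and releases retinol bound to RBP4 and transthyretin. In cells, retinol is oxidised to retinal and then to retinoic acid, which acts on nuclear receptors and induces its own breakdown by CYP26 enzymes.

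The values were TPM, a relative transcript abundance, which scale each gene by its length and each library to the same total. They compare levels between genes per length and carry no read depth, so no counting interval or detection limit can be given, and a value of 0 means only that the gene is listed at 0. Differences between CORT and Veh were tested with limma on log2(TPM + 1) over all genes whose mean reached 1 TPM in the Veh or the CORT group of a tissue. A gene passed when its Benjamini-Hochberg adjusted p was 0.05 or less and its fold change was over 1.5.

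No member passed in either tissue. In the duodenum 8 members could be tested with limma and 0 passed, beside 1.23% of all tested genes that passed as higher and 0.919% that passed as lower. In the liver 7 could be tested and 0 passed, beside 4.91% of tested genes higher and 2.01% lower. At an unadjusted p under 0.05 the counts were 3 in the duodenum (Bco1, Rbp2 and Retsat), beside 19.2% of all tested genes, and 0 in the liver, beside 25.9%. The members not tested were Cyp26a1 in the duodenum and Rbp2 and Isx in the liver. The 3 CORT libraries all lay above the 3 Veh libraries for Rbp2 and Bco1 in the duodenum, an order held by 12.2% of all tested genes there. Bco1 entered the test only through its CORT group, so its order and its p were bound to lean that way, and nothing about the members is read from this count. No tested member lay wholly below, against 14.3% of genes. In the liver 0 members lay wholly above and 0 wholly below, against 20.6% and 11.6% of genes. With 3 libraries against 3, a two-sided exact permutation test cannot give a p below 0.1, the value of both Rbp2 and Bco1.

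The promoter windows of Rbp2 and Bco1 are shown because their duodenum groups did not overlap, so this pair was picked from the expression values. The window of Cyp26a1 is shown because it carries the textbook arrangement of a retinoic acid response element. Each window holds the 250 bases before the start site in RefSeq on GRCm38.p6, written 5′ to 3′ along the gene, while the expression tables were made on GRCm39. Capitals mark the shared run in Rbp2 and Bco1 and the direct repeat in Cyp26a1.
Rbp2, chr9:98490287-98490536, plus strand: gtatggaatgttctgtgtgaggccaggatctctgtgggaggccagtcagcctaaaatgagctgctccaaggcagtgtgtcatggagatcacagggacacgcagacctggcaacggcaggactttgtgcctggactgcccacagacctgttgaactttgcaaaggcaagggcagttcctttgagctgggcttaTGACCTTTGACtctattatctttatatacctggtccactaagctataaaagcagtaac
Bco1, chr8:117095615-117095864, plus strand: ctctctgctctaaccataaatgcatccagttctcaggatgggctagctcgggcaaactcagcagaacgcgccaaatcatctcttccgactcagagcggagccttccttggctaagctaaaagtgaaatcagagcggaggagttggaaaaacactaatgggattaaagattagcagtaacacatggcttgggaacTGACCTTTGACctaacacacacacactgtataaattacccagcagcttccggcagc
Cyp26a1, chr19:37697558-37697807, plus strand: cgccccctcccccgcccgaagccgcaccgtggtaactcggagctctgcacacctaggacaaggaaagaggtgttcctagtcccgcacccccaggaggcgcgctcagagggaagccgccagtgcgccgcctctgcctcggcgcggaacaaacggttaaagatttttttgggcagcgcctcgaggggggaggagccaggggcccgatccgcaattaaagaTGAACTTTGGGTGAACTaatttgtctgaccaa

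The longest run that the windows of Rbp2 and Bco1 share is TGACCTTTGAC, of 11 bases, at positions -58 to -48 and -56 to -46 from the start site. The run was found by comparing the windows of Rbp2 and Bco1 alone, after the expression values had been seen. No other pair of members was searched, so the rarity of the run says nothing about their expression. Read on either strand the run was in 10 of 32851 RefSeq windows of the same length (0.0304%), those of Rbp2 and Bco1 included. In Bco1 it is part of a direct repeat spaced by 1 base, built from the nuclear receptor motif AGGTCA, with the letters AGTTCA allowed in its place as well as the letters GGGTCA and also the letters GGTTCA, on either strand, at positions -56 to -44, an arrangement that 54 windows held (0.164%) and that overlaps the shared run. The Cyp26a1 repeat is spaced by 5 bases at positions -32 to -16, and 29 windows held such a repeat (0.0883%). The 9 members had 12 windows in RefSeq, and no other member window held any of these 3 patterns. The glucocorticoid receptor motif AGAACA, which reads TGTTCT on the other strand, was in 16.1% of all windows and in the windows of Lrat, at positions -73 to -68, and Rbp2, at positions -242 to -237, and its palindrome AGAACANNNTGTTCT was in 0 member windows. These are matches of letters in short windows, and binding was not measured.

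In the Veh duodenum the order of the mean levels in TPM was Rbp2, Aldh1a1, Rdh7, Retsat, Isx, Lrat, Rbp4, Bco1 and Cyp26a1, and the only neighbours whose 3 libraries overlapped were Rdh7 and Retsat. In the Veh liver it was Rbp4, Rdh7, Aldh1a1, Retsat, Cyp26a1, Bco1 and Lrat, with Rbp2 and Isx at or near 0, and Bco1 and Lrat overlapped. The tissues shared few of these levels. Rbp4 was 874.8-fold higher in the Veh liver than in the Veh duodenum, Bco1 was 5.79-fold higher and Rdh7 was 5.30-fold higher, while Lrat was 2.23-fold higher in the duodenum. Retsat and Aldh1a1 overlapped between the tissues. The tissues were prepared as separate tables, so these ratios are descriptive.

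**Figure D1:**
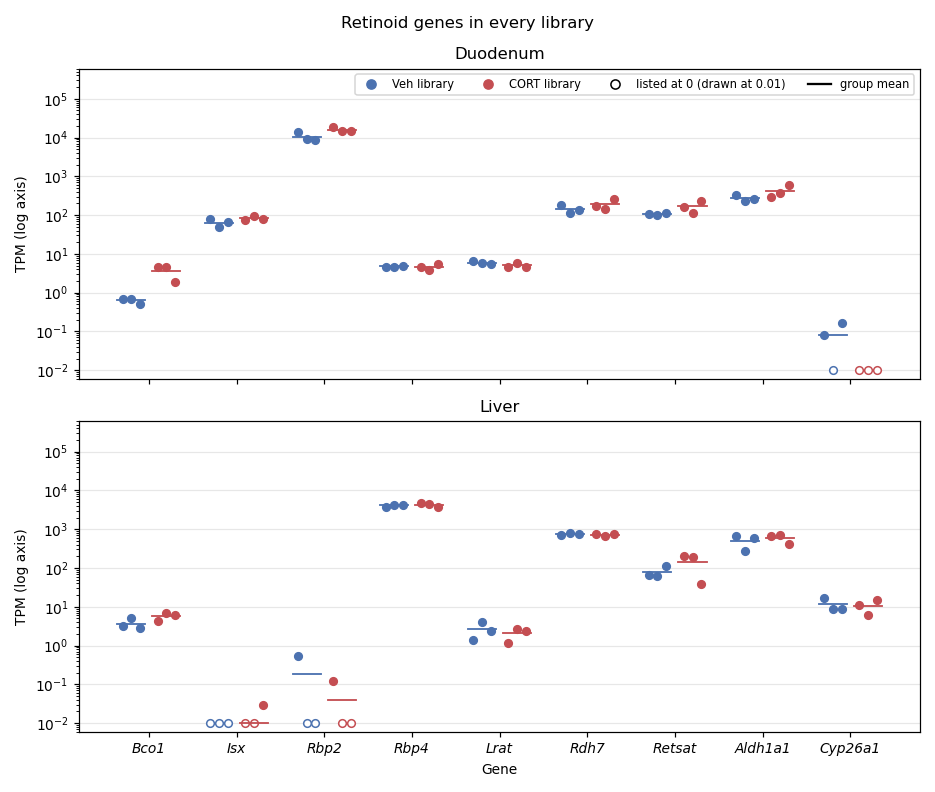
TPM (log axis) of the 9 genes in each of the 6 duodenum and 6 liver libraries, with Veh in blue, CORT in red, group means as lines and open circles for libraries listed at 0. Rbp2 dominates the duodenum and Rbp4 the liver, and only Rbp2 and Bco1 in the duodenum have all 3 CORT points above all 3 Veh points.

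Carotenoid cleavage and its control came first. Bco1, the enzyme that splits beta-carotene into retinal, was at 0.69, 0.70 and 0.51 TPM in the Veh duodenum and at 4.56, 4.70 and 1.86 TPM in CORT. Every CORT library was higher than every Veh library, and the third CORT library stood well below the first and the second. The mean was 0.633 ± 0.107 TPM (SD, n = 3) in Veh and 3.71 ± 1.601 in CORT, a ratio of 5.85. On the log2(TPM + 1) scale the difference was 1.46 (SE 0.29, 95% interval 0.77 to 2.15), which understates the change of so low a gene, and the adjusted p from limma was 0.0598. Bco1 passed the filter on low values through its CORT group alone. Its call depended on the processing: it passed without CORT replicate 3 (difference 1.79, limma adjusted p 0.0269), with a pseudocount of 0.1 and with both tissues in 1 fit, and in none of the other 9 alternatives.

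Isx, the repressor of Bco1, was at 79.4, 48.0 and 66.1 TPM in the Veh duodenum and at 73.3, 92.9 and 79.4 TPM in CORT. The groups overlapped, with a difference of 0.36 (SE 0.20, 95% interval -0.12 to 0.84, limma adjusted p 0.382). In the liver Isx was listed at 0 in 5 libraries and at 0.03 TPM in the third CORT library. Bco1 in the liver was at 3.14, 5.11 and 2.76 TPM in Veh and at 4.22, 6.94 and 5.97 TPM in CORT. These groups overlapped, and the difference was 0.53 (SE 0.24, 95% interval -0.03 to 1.103, limma adjusted p 0.215).

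The binding proteins Rbp2 and Rbp4 mark both ends of the route, from uptake in the gut to release from the liver. Rbp2, which binds retinol and retinal inside enterocytes, was at 13639, 8934 and 8597 TPM in the Veh duodenum and at 18468, 14401 and 15082 TPM in CORT. It was the gene with rank 6 by mean level in the duodenum table, at 0.863 to 1.37% of all TPM in Veh and 1.45 to 1.86% in CORT. The groups did not overlap, although the first Veh library was within 762 TPM of the lowest CORT library. The ratio of the means was 1.54, the difference 0.65 (SE 0.23, 95% interval 0.10 to 1.19) and the limma adjusted p 0.193. It stayed between 0.53 and 0.86 when each library was left out in turn, and no alternative gave an adjusted p of 0.05 or less. In the liver Rbp2 was at 0.55 and 0.12 TPM in the first Veh and first CORT libraries and listed at 0 in the other 4.

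The enterocyte markers did not all move alike. Of the 15 enterocyte markers, which do not include Rbp2, all reached a mean of 1 TPM in the duodenum, 1 passed as higher (Apob, which encodes the structural protein of chylomicrons) and 0 passed as lower. The CORT libraries all lay above the Veh libraries for 6 markers and below them for 0, and the groups overlapped for 9. Over all tested genes 12.2% lay wholly above and 14.3% wholly below, so the list held a larger share wholly above. The summed level of the list was 28445 to 42283 TPM in Veh and 48763 to 52965 TPM in CORT. In TPM this gap lay mostly in Fabp1, Apoa4 and Fabp2, genes of fatty acid binding and lipoprotein assembly. Those 3 summed to 26547, 17321 and 17427 TPM in Veh and to 38940, 37137 and 38820 TPM in CORT, while the other 12 summed to 15736, 11123 and 11992 TPM and to 14025, 11626 and 13260 TPM, which overlap. The 3 were picked after their values were seen, so the overlap of the other 12 follows in part from that choice. Of those 12, Apob, Mttp and Mgam still lay wholly higher in CORT, and the rest overlapped. How Rbp2 compared with the markers therefore depended on the marker. As a percent of the whole sum Rbp2 was at 32.3, 31.4 and 29.2 in Veh and at 34.9, 29.5 and 29.0 in CORT. Its ratio to Vil1, the villin gene of the brush border, was 9.501, 9.32 and 8.06 in Veh and 16.3, 17.2 and 13.5 in CORT, but Isx, Retsat, Aldh1a1 and Rdh7 relative to Vil1 also had every CORT library above every Veh library. Taking each marker in turn, the ratio of Rbp2 to the marker lay wholly higher in CORT for 4 markers, wholly lower for 2 and overlapped for 9. These ratios were added after the values were seen, and the part of the markers in the Rbp2 difference was not tested. In bulk tissue, fewer cells of a type and less RNA per cell cannot be told apart. The pancreatic acinar list also set libraries apart, at 4.46 and 3.80% of all TPM in the second and the third Veh duodenum libraries against 0.259% in the first and 0.288 to 0.435% in CORT. The sum of the proximal intestine list went the same way, at 424 and 463 TPM against 142 and against 122 to 188. Most of that contrast was Slc40a1, at 263 and 302 TPM against 11.8 and against 3.22 to 56.0. Pdx1 and Cybrd1 of that list went the same way, and Gata4 and Onecut2 did not. With the acinar genes removed the Rbp2 difference was 0.61, and without the first Veh library it was 0.86 (limma adjusted p 0.108). That second fit leaves only the Veh libraries with a high acinar share, so treatment and acinar content cannot be told apart in it. The library left out also had the highest Rbp2 level in Veh.

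**Figure D2:**
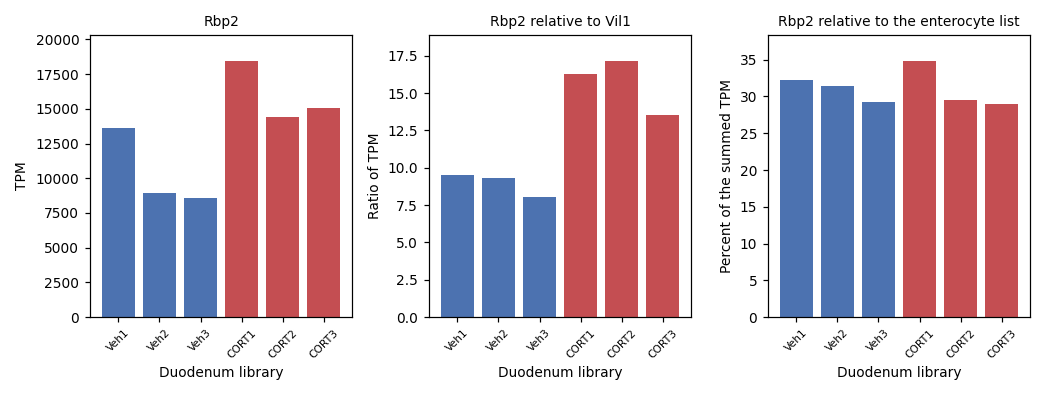
Rbp2 in the 6 duodenum libraries, with Veh in blue and CORT in red, as TPM, as its ratio to Vil1 and as a percent of the summed TPM of 15 enterocyte markers. The CORT bars are all higher in the first 2 panels, and in the third Veh (29.2 to 32.3%) lies within the range of CORT (29.0 to 34.9%).

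Rbp4, the plasma carrier of retinol, was at 3831, 4268 and 4332 TPM in the Veh liver and at 4834, 4473 and 3647 TPM in CORT. The third CORT library was the lowest of the 6 and the first the highest, so the groups overlapped, with a difference of 0.05 (SE 0.16, 95% interval -0.32 to 0.42, limma adjusted p 0.861). In the duodenum Rbp4 was at 4.50, 4.71 and 5.0 TPM in Veh and at 4.68, 3.86 and 5.37 TPM in CORT, a difference of -0.03 (95% interval -0.38 to 0.32, limma adjusted p 0.927). The sign of both differences turned under some alternatives.

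Lrat, which esterifies retinol, was at 6.38, 5.82 and 5.45 TPM in the Veh duodenum and at 4.53, 5.94 and 4.70 TPM in CORT. The groups overlapped and the difference was -0.19 (SE 0.14, 95% interval -0.53 to 0.15, limma adjusted p 0.513). In the liver, where stellate cells hold most of it, Lrat was at 1.42, 4.05 and 2.43 TPM in Veh and at 1.15, 2.69 and 2.44 TPM in CORT, a difference of -0.21 (95% interval -0.98 to 0.57, limma adjusted p 0.726). Of 11 stellate markers, 9 reached a mean of 1 TPM in the liver and 0 passed. They summed to 139, 400 and 273 TPM in Veh, the same order of libraries as for Lrat, and to 317, 339 and 438 TPM in CORT, where the orders differed: Lrat was highest in CORT replicate 2 and the sum in CORT replicate 3.

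The enzymes that act on retinol and retinal followed. Rdh7, a retinol dehydrogenase, was at 180, 115 and 139 TPM in the Veh duodenum and at 169, 141 and 263 TPM in CORT, with the third CORT library apart from the rest. The difference was 0.37 (SE 0.27, 95% interval -0.26 to 1.00, limma adjusted p 0.487). In the liver it was the member with the smallest SE, at 712, 820 and 768 TPM in Veh and at 757, 671 and 733 TPM in CORT. There the difference was -0.09 (SE 0.12, 95% interval -0.38 to 0.20, limma adjusted p 0.682). Rdh7 has close relatives that could share its reads. In the liver Rdh16f2 was next in level at 118 ± 9.48 TPM (SD, n = 3) in Veh, Rdh16 was at 18.9 TPM, Rdh9 at 14.0, Rdh19 at 1.76 and Rdh1 at 0.03. In the duodenum Rdh9 was the highest of them at 33.3 TPM in Veh, with Rdh16f2 at 14.1, Rdh16 at 3.99, Rdh19 at 0.057 and Rdh1 at 0.04.

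Retsat, the saturase that converts retinol to a dihydroretinol, was at 107, 98.5 and 116 TPM in the Veh duodenum and at 160, 115 and 226 TPM in CORT. The second CORT library lay inside the Veh range, and the difference was 0.59 (SE 0.24, 95% interval 0.02 to 1.15, limma adjusted p 0.245). In the liver it was at 65.5, 64.0 and 113 TPM in Veh and at 210, 187 and 39.2 TPM in CORT. The first 2 CORT libraries were above all Veh libraries and CORT replicate 3 below all of them, and the difference of 0.56 had an SE of 0.62 and a 95% interval of -0.91 to 2.03 (limma adjusted p 0.606). Without CORT replicate 3 it was 1.33 (limma adjusted p 0.0511).

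Aldh1a1, which makes retinoic acid from retinal, was at 330, 232 and 256 TPM in the Veh duodenum and at 285, 377 and 605 TPM in CORT. The groups overlapped, with a difference of 0.58 (SE 0.29, 95% interval -0.10 to 1.25, limma adjusted p 0.329). In the liver it was at 658, 270 and 598 TPM in Veh and at 662, 707 and 414 TPM in CORT, and the second Veh and the third CORT libraries were the lowest. The difference was 0.29 (95% interval -0.59 to 1.17, limma adjusted p 0.659), and it was -0.12 without the second Veh library. Aldh1a7, a near relative of Aldh1a1 whose reads may be shared with it, was at 28.04 TPM in Veh and 48.2 in CORT in the duodenum and at 97.9 and 136 TPM in the liver.

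Cyp26a1, which breaks down retinoic acid and is induced by it, was at 17.1, 8.82 and 9.01 TPM in the Veh liver and at 10.96, 6.05 and 14.97 TPM in CORT. The ranges overlapped, and the difference was -0.14 (SE 0.36, 95% interval -0.98 to 0.71, limma adjusted p 0.841). In the duodenum it was at 0.08 and 0.17 TPM in the first and the third Veh libraries and listed at 0 in the second and in all 3 CORT libraries.

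**Figure D3:**
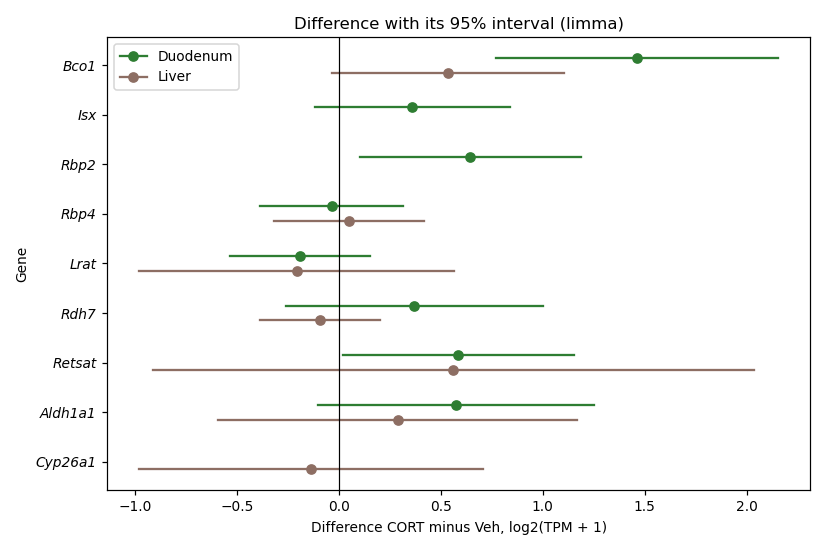
Difference between CORT and Veh on the log2(TPM + 1) scale with its 95% interval from limma for each tested member, duodenum in green and liver in brown. The intervals of Bco1, Rbp2 and Retsat in the duodenum lie above 0 before adjustment, and every liver interval includes 0.

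The median difference of the 8 tested members in the duodenum was 0.47 on the log2(TPM + 1) scale, beside -0.01 over all tested genes, and 6 were above 0 and 2 below. Among these is Bco1, with the largest difference (1.46), which entered the test only through its CORT group. Its sign was bound to lean that way, so nothing about the members is read from this median or split. In the liver the median of the 7 was 0.05, beside 0.08 over all tested genes, with 4 above 0 and 3 below. The response of 0 members differed between the tissues in the limma fit with a treatment by tissue term, while 3.61% of all tested genes had a difference that passed an adjusted p of 0.05. The response in the liver minus that in the duodenum was -0.80 (SE 0.30, 95% interval -1.46 to -0.15, limma adjusted p 0.183) for Rbp2 and -0.93 (SE 0.39, 95% interval -1.80 to -0.06, limma adjusted p 0.242) for Bco1. For Rbp2 this compares the duodenum with a liver in which the gene is near 0. These 2 were the members with an unadjusted p under 0.05 in that limma fit. The share of all tested genes under that unadjusted p is not given, so nothing about the members is read from this count.

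Fkbp5, measured as a check of the treatment and known as a target gene of the glucocorticoid receptor, was at 15.4 ± 7.41 TPM (SD, n = 3) in the Veh duodenum and 304 ± 66.7 in CORT, and at 13.1 ± 6.19 and 248 ± 26.1 TPM in the liver (limma adjusted p 0.00450 and 0.00178). All 12 hepatocyte markers reached a mean of 1 TPM in the liver, and 7 of them also did so in the duodenum. Alb, the albumin gene, was under 1 TPM in every duodenum library, while Apoa1 of the same list was at 8173 to 21477 TPM there.

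Around the members, a list of 52 retinoid genes that includes them gave 43 others, of which 30 were tested in the duodenum and 31 in the liver. In the duodenum 1 of the 30 rose and 0 fell, beside 1.23% and 0.919% of all tested genes. Ces1d, a carboxylesterase that can cleave retinyl esters, was at 6.35, 12.2 and 12.8 TPM in Veh and at 62.9, 65.8 and 97.1 TPM in CORT. The groups were far apart, with a difference of 2.76 (SE 0.29, limma adjusted p 0.00921), and Ces1d passed in all 12 alternatives. It belongs to a family of closely related carboxylesterases that may share reads. The next genes by p after Bco1 were Aldh1a7 (difference 0.77, limma adjusted p 0.0685) and Cd36 (1.54, 0.0879), and neither passed.

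In the liver 1 of the 31 rose and 1 fell, beside 4.91% and 2.01% of all tested genes. Counts this near the background show nothing particular to the list. Cd36, a membrane carrier of fatty acids and carotenoids, was at 3.56, 8.40 and 7.37 TPM in Veh and at 42.6, 82.4 and 43.9 TPM in CORT, a difference of 2.94 (SE 0.35, limma adjusted p 0.00693). Bco2, which cleaves carotenoids at an off-centre bond, was at 9.24, 9.35 and 10.2 TPM in Veh and fell to 4.31, 3.50 and 2.57 TPM in CORT, a difference of -1.26 (SE 0.17, limma adjusted p 0.00986). Both passed in all alternatives. The next genes by p, which did not pass, were Fabp5 (difference -1.84, limma adjusted p 0.0591), Ces1d (1.00, 0.0767) and Rdh16f2 (-0.67, 0.0830).

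**Figure D4:**
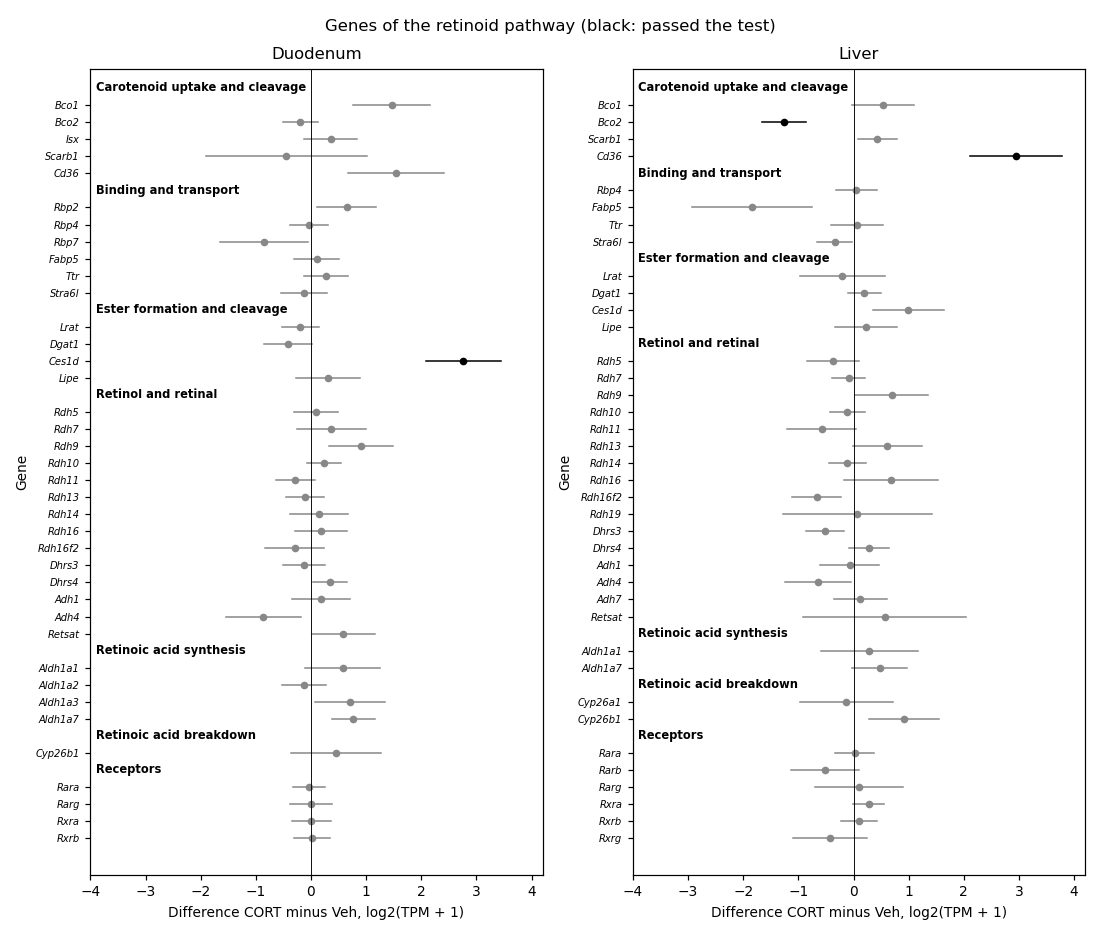
Difference between CORT and Veh on the log2(TPM + 1) scale with its 95% interval for each tested gene of the 52 retinoid genes, grouped by role, duodenum left and liver right. Black marks the 3 that passed: Ces1d in the duodenum and Cd36 and Bco2 in the liver.

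By role, the carotenoid group held the 2 liver calls and the ester group the duodenum call. No gene passed in either tissue among those of binding and transport (6 tested in the duodenum, 4 in the liver), those that act on retinol and retinal (14 and 16), those that make retinoic acid (4 and 2), those that break it down (1 and 2) and the receptors (4 and 6). The differences of the receptors lay between -0.04 and 0.02 on the log2(TPM + 1) scale in the duodenum and between -0.52 and 0.27 in the liver.

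**Figure D5:**
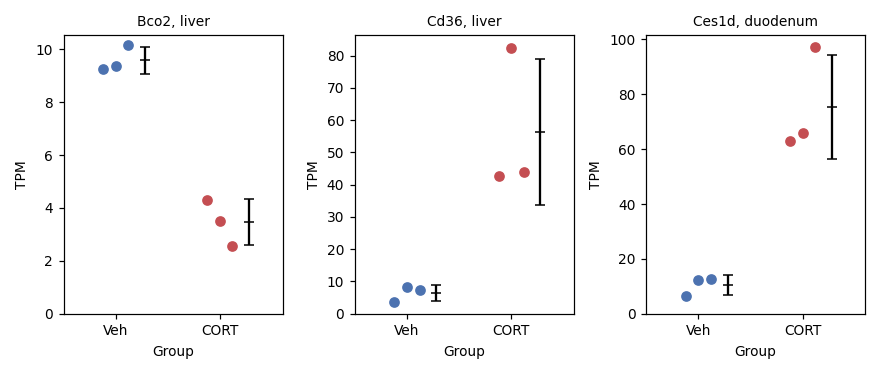
TPM of Bco2 and Cd36 in the liver and Ces1d in the duodenum, with 1 point per library and the mean with its SD (n = 3) beside each group. The Veh and CORT points do not overlap in any panel.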

How the data were processed

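RNA-seq of duodenum and liver was analysed, with 3 Veh and 3 CORT libraries per tissue, grouped by the sample labels. After trimming (SeqPrep, Sickle), the authors aligned reads by HISAT2, assembled transcripts by StringTie and quantified them by RSEM. The deposited tables give TPM for each gene in each library. The submitters' processing notes name GRCm39, and tool versions and the annotation release are not given in the sources used here. The authors called DEGs with DESeq2, which needs counts, so log2(TPM + 1) was fitted here with limma 3.58.1 in R 4.3.3 (eBayes with a trend, Benjamini-Hochberg over 13607 duodenum and 11699 liver genes). The depth per library is unknown and TPM sums to 983327 to 997319 per library.

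Named were all members, the genes of a wider retinoid list that passed, the next 3 by p in each tissue (1 gene of that list is not reported here), Fkbp5 and close relatives of Rdh7 and Aldh1a1. The members and lists were chosen with earlier results of these data known. Alternatives were the pseudocount, the filter, scaling, a joint fit, a replicate block, removed acinar genes and each library left out. Tested on simulated data with a log2 change of 2 set in 200 genes, the fit called 188 of them among 13607 duodenum genes and 181 among 11699 liver genes. It also called 11 and 9 unchanged genes. The change was set only in genes above 2 on the log2(TPM + 1) scale in Veh. That change is larger than the reported difference of any member, so detection of smaller differences was not tested.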

Additional observations from a re-analysis of the deposited data

Results flagged for a closer look

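The response of 2 genes of the wider retinoid list differed between the tissues by the treatment by tissue term in limma. That is 2 of the 43 list genes tested (4.65%), near the 3.61% of all 14806 genes tested. For Bco2 the response in the liver minus that in the duodenum was -1.07 (SE 0.21, limma adjusted p 0.0211), and for Ces1d it was -1.77 (SE 0.43, limma adjusted p 0.0489). Bco2 was at 65.6 ± 8.97 TPM in the Veh duodenum and 57.1 ± 2.74 in CORT (SD, n = 3), against 9.58 ± 0.502 and 3.46 ± 0.871 TPM in the liver. Ces1d was at 10.4 ± 3.56 and 75.3 ± 18.9 TPM in the duodenum and at 293 ± 100.03 and 567 ± 105.7 TPM in the liver. Of 16 alternatives, the call held in 12 for Bco2 and in 3 for Ces1d. The call of Bco2 was lost without duodenum Veh replicate 2 or 3, without liver Veh replicate 3 and with the replicate block. No difference of a member passed.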

How the results depend on the processing

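Of 173 member values under other settings, 161 kept their direction and their side of the threshold, 3 passed where the reported value did not and 9 changed sign. The count of members that passed in the duodenum was 1, Bco1, with a pseudocount of 0.1 (difference 2.28, limma adjusted p 0.0421) and with both tissues in 1 fit (limma adjusted p 0.0131), and 0 to 1 when libraries were left out. The duodenum count of the wider list was 2 with a pseudocount of 0.1, 3 with both tissues in 1 fit and 1 to 2 with a library left out. The liver count was 5 with median-ratio scaling and 2 to 3 with a library left out. With that scaling the liver split of all genes that passed was 543 higher and 468 lower instead of 575 and 235, and the median difference of all genes moved from 0.08 to -0.003.

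Signs turned for Rbp4 in the liver with median-ratio scaling (-0.0441) and over libraries left out (-0.0347 to 0.17, with -0.0037 without Veh replicate 1), for Rbp4 in the duodenum (-0.13 to 0.0693), and in the liver for Cyp26a1 (-0.40 to 0.19, with 0.16 without Veh replicate 1), Lrat (-0.47 to 0.0635, with 0.04 without CORT replicate 1) and Aldh1a1 (-0.12 to 0.53). Their causes were not tested. The count over all genes in the duodenum fell from 292 to 52 with no filter, where more genes are tested, and to 66 without Veh replicate 3. In the liver it fell from 810 to 283 and, without CORT replicate 1, to 247. With both tissues in 1 fit it rose to 661 in the duodenum (329 higher and 332 lower) and 1286 in the liver. Same-numbered Veh and CORT libraries correlated at -0.004 to 0.073 in the duodenum and -0.120 to 0.038 in the liver. Duodenum and liver libraries of the same group and number correlated at -0.133 to 0.102, and those of different numbers at -0.138 to 0.215. No pairing by number was seen in these values, and the labels do not say whether there was one. Within a tissue the replicate block joined Veh and CORT libraries of the same number. In the treatment by tissue fit it joined duodenum and liver libraries of the same group and number. The replicate block left 0 members called in both tissues, with 62 duodenum and 307 liver genes over all and 1 and 3 of the wider list, where Fabp5 passed in the liver. Depth is unknown, and 3 libraries per group limit what could be detected.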

Other observations

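Cyp26b1, a relative of Cyp26a1 that also breaks down retinoic acid, was at 0.05, 0.04 and 0.10 TPM in the Veh liver and at 0.53, 1.52 and 1.09 TPM in CORT. The groups did not overlap, the gene passed the filter on low values through CORT alone and its difference of 0.92 on the log2(TPM + 1) scale did not pass (SE 0.27, limma adjusted p 0.0865). Cyp26b1 was named after its values were seen.

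In the liver, the goblet cell list summed to 347 TPM in the second Veh library and 426 TPM in the third CORT library, against 22.9 to 66.5 TPM in the other 4, and 1 of its 7 genes reached a mean of 1 TPM. These are the libraries in which Aldh1a1 was lowest, and the relation was not tested. The pericentral list summed to 3010 to 4928 TPM in Veh and 5363 to 8296 TPM in CORT, and 0 of its 8 genes passed. Most of this sum was Cyp2e1, at 2363 to 3662 TPM in Veh and 4175 to 6988 TPM in CORT. Glul and Slc1a2 also lay wholly higher in CORT, Lgr5 lay wholly lower, and Cyp1a2, Oat, Axin2 and Rhbg overlapped. Of all tested liver genes, 20.6% lay wholly higher and 11.6% wholly lower. Within each group the pericentral sum, like Aldh1a1, was lowest in the second Veh library (3010 TPM) and the third CORT library (5363 TPM). Cyp2e1, Glul, Axin2 and Rhbg were lowest in these libraries of their groups as well. Cyp1a2, Oat, Slc1a2 and Lgr5 were not, and the relation to Aldh1a1 was not tested.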
